A study of Mus musculus with 2 samples.

Results

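Voltage-gated calcium channels were examined through 10 subunit genes, namely Cacna1a, Cacna1b, Cacna1c, Cacna1e and Cacna1g, Cacnb2 and Cacnb4, and Cacna2d1, Cacna2d2 and Cacna2d3. They were chosen by gene symbol from the 18 genes of the α1, β and α2δ classes, out of 43346 Ensembl genes in the tables. No rule on measured values was used, but earlier results of these data were known. All 10 were found in both libraries. RNA came from 2 laser-captured areas of the cerebellar granule layer, 1 library each, and the libraries form a single group with no contrast. By the labels the tissue was from adult male wild-type C57Bl6 mice (strain B6NCrl) aged 8 months, with 18000 square microns of granule areas and a starting quantity of 50 cells. The molecule was total RNA, and libraries followed a Smart-seq protocol, which copies and amplifies polyadenylated RNA from few cells. The libraries are numbered biological replicates 1 and 2 but carry 1 donor label, so whether their spread covers more than 1 animal is not known. The assay is labelled single cell RNA-seq, yet each library is a small bulk sample.

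A voltage-gated calcium channel opens when the membrane depolarizes, and the calcium that enters drives transmitter release, firing and gene regulation. The α1 subunit forms the pore and sets the current type, the β subunit binds it from the cytosol and tunes its gating and delivery to the membrane, and the α2δ subunit sits on the outer face and raises the number of channels there. In the cerebellum, P/Q-type channels carry much of the calcium entry at parallel fibre synapses, which granule neurons form on Purkinje cells. Mouse mutants of Cacna1a (tottering), Cacnb4 (lethargic) and Cacna2d2 (ducky) are ataxic.

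Expected counts over genes summed to 19962271 in replicate 1 and 19261911 in replicate 2, so that a count of 0 allowed up to 0.150 and 0.156 counts per 1000000 gene counts. The granule neuron markers fitted the label: all 7 (Gabra6, Neurod1, Etv1, Chn2, Cbln3, Slc17a7 and Fat2) were detected in both libraries and summed to 2516 and 2780 TPM (transcripts per 1000000, a level scaled for transcript length and library total). Markers of other cell types were found too. Summed marker TPM was 606 and 586 for Bergmann glia and astrocytes, 522 and 637 for oligodendrocytes, 237 and 259 for Purkinje cells, 154 and 129 for endothelium, and below 100 for the other lists. The Purkinje cell sum came mostly from Pcp2 (91.1 and 158) and Pcp4 (113 and 68.85), and the list median was 5.89 and 5.85. The endothelial sum came mostly from Ly6c1 (141 and 120), and the list median was 5.1 and 3.7. No marker was at 0 in both libraries. In such bulk RNA a gene's level mixes cell types, and fewer cells of a type and less RNA per cell cannot be told apart.

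A gene counted as detected where its TPM reached 1 and its expected count reached 5. By that rule 9 of the 10 subunit genes were detected in both libraries, against 50.4% of 21474 protein-coding genes. Cacna1g was the exception. Of the 8 other family genes, 4 were detected in both libraries. The levels fell into steps, with Cacnb4 on top, then Cacna1a, then Cacna1e with Cacna2d1, then Cacna1b with Cacna1c, then Cacnb2 with Cacna2d2 and Cacna2d3, and Cacna1g last. Within each step the ranges of the 2 libraries overlapped between neighbours, and between steps they did not.

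**Figure D1:**
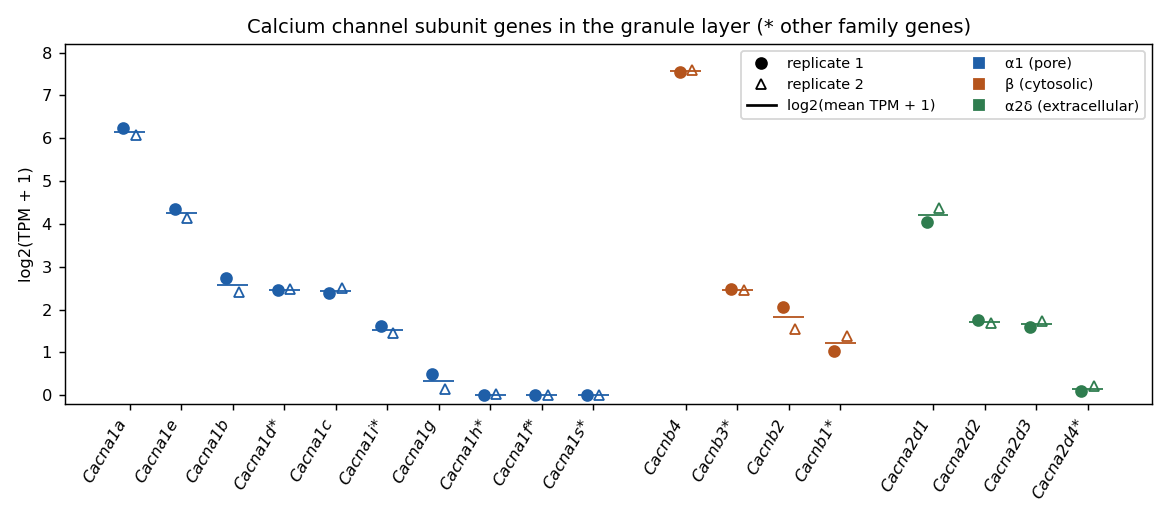
Gene level as log2(TPM + 1) for the 18 family genes, grouped by subunit class; filled circles are replicate 1, open triangles replicate 2, and the short lines mark the mean TPM on that scale. Cacnb4, Cacna1a and Cacna2d1 lead their classes in both libraries, and genes marked with an asterisk are not among the 10.

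Cacna1a (ENSMUSG00000034656.12, chr8:84388440-84640246, plus strand, GRCm38) encodes the pore of P/Q-type channels. Its gene TPM was 74.4 in replicate 1 and 65.9 in replicate 2, or 70.2 ± 6.02 (SD, n = 2), above 92.1% of protein-coding genes. That made it 67.3% ± 0.0579 (SD, n = 2) of the summed α1 TPM. Most of this level, however, was assigned to transcript models that do not encode the channel. The leading model in both libraries was Cacna1a-207, a retained-intron transcript of 1153 bases, with 501 and 420 expected counts and 36.8% ± 0.672 (SD, n = 2) of the gene's TPM. Cacna1a-206, another retained-intron model, held 19.6% ± 1.25, and the processed transcript Cacna1a-204 held 14.2% ± 3.85 (SD, n = 2). The full coding transcript Cacna1a-201, 7926 bases long, took 1253 and 1016 counts, more than any of those, but 12.2% ± 0.516 of the TPM, because TPM divides by length.

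The short models end inside introns of the coding transcripts, and the places where they read on are shown because these stretches set them apart from the coding transcripts. Reads were not available by position. Cacna1a-206 and Cacna1e-204 also hold bases of their own elsewhere, while those of Cacna1a-207 all lie in the intron it reads into. Each sequence below has 30 coding exon bases in capitals and the first 30 intron bases in lower case, on the sense strand of GRCm38, read from GENCODE M21 coordinates. All 3 introns begin with the usual GT. Counted from the exon edge, Cacna1a-207 (shown at chr8:84612383-84612442) continues for 630 intron bases, Cacna1a-206 (chr8:84518734-84518793) for 276, and Cacna1e-204 (chr1:154700341-154700400, minus strand), described next, for 1282.
Cacna1a-207: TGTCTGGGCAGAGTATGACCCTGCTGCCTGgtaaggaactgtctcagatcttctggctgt
Cacna1a-206: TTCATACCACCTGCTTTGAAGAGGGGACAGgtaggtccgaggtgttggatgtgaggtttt
Cacna1e-204: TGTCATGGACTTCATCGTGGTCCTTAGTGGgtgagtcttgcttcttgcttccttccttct

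Cacna1e (ENSMUSG00000004110.10, chr1:154390731-154884501, minus strand) encodes the pore of R-type channels. Its gene TPM was 19.4 in replicate 1 and 16.5 in replicate 2. The coding transcript Cacna1e-203 led in both libraries with 59.4% ± 3.58 (SD, n = 2) of the TPM and 2799 and 2523 counts. The retained-intron model Cacna1e-204, of whose 2356 bases 78.1% lie outside the exons of coding transcripts, held 32.9% ± 4.43 (SD, n = 2) from 270 and 185 counts.

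The order of the 2 highest pore genes therefore depended on which transcripts were counted. Over all transcripts Cacna1a was 3.92-fold ± 0.110 (SD, n = 2) above Cacna1e. Over protein-coding transcripts alone, Cacna1a stood at 9.34 and 7.79 TPM and Cacna1e at 11.0 and 10.2, so that Cacna1e was 1.25-fold ± 0.0934 (SD, n = 2) higher and the ranges did not overlap. When all reads of a gene were instead divided by the length of its longest coding transcript, Cacna1a was 26.7 and 23.7 and Cacna1e 18.2 and 16.5, with Cacna1a 1.45-fold ± 0.0217 (SD, n = 2) higher. The Cacna1a share of the α1 class was 25.1% ± 1.14 by coding transcripts and 39.3% ± 0.179 (SD, n = 2) by the fixed length. The coding-transcript measure was added after the values had been seen.

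**Figure D2:**
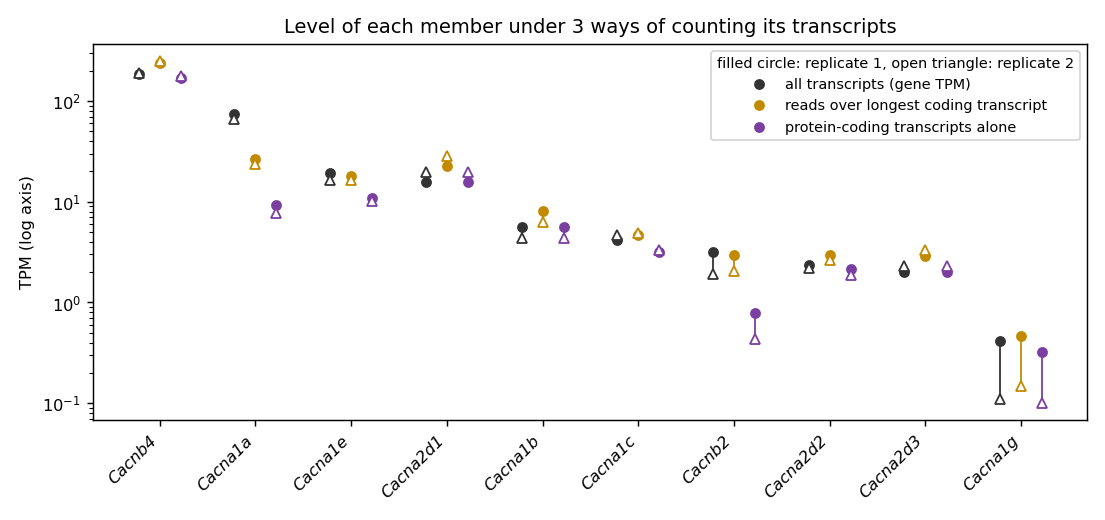
Level of each of the 10 genes in TPM on a log axis, by all transcripts, by all reads over the length of the longest coding transcript, and by protein-coding transcripts alone; circles are replicate 1 and triangles replicate 2. Cacna1a and Cacnb2 move most between measures, and Cacnb4 is highest in all 3.

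Cacna1b (chr2:24603887-24763152, minus strand), the N-type pore that also serves transmitter release, had a TPM of 5.64 and 4.34. All of it was assigned to the coding transcript Cacna1b-202 (76.5% by posterior mean). Cacna1c (chr6:118587240-119196418, minus strand), an L-type pore known for coupling activity to gene regulation, had a TPM of 4.20 and 4.69. Its leader was the coding transcript Cacna1c-207 with 61.4% ± 1.85 of the TPM, followed by Cacna1c-216 with 10.8% ± 0.410 (SD, n = 2). Cacna1b and Cacna1c could not be ordered by gene TPM, since their ranges overlapped. By coding transcripts Cacna1b was higher in both libraries, as Cacna1c stood at 3.18 and 3.34.

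Cacna1g (chr11:94408391-94474198, minus strand), a T-type pore that opens at low voltage, was the lowest of the 10. Its expected counts were 45 and 14 and its TPM 0.41 and 0.11. The coding transcript Cacna1g-210 led with 82.3% ± 5.88 (SD, n = 2), but by the deposited posterior mean it held 3.59%, so the isoform is not settled at this depth. Both counts lie above the floor of 3, so that reads were present in each library, but its TPM was below the level used for detection. The other pore genes with reads were Cacna1d, an L-type gene at 4.47 and 4.54 TPM, and Cacna1i, a T-type gene at 2.07 and 1.72. Cacna1h had 0 and 3 counts. Cacna1f and Cacna1s, known from retina and skeletal muscle, had 0 counts in both libraries.

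Cacnb4 (ENSMUSG00000017412.11, chr2:52428320-52676831, minus strand) was the highest gene of the family. Its TPM was 187 in replicate 1 and 191 in replicate 2, or 189 ± 3.26 (SD, n = 2), from 22947 and 23224 counts. It lay above 97.1% of protein-coding genes and made up 95.8% ± 0.320 (SD, n = 2) of the summed β TPM. Cacnb3, the next β gene, had 4.56 and 4.48 TPM, so that Cacnb4 was 41.9-fold ± 1.25 (SD, n = 2) higher. Cacnb4 also exceeded Cacna1a by 2.71-fold ± 0.279 over all transcripts and by 20.5-fold ± 3.20 (SD, n = 2) over coding transcripts.

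Cacnb4 transcripts start in 2 places, 118.3 kb apart at their most upstream sites, and the models differ in their first coding bases. Their coding starts are shown because these bases differ between the models. Capitals mark the coding bases that precede the shared stretch in each model, lower case the 30 coding bases that follow in all of them, from GENCODE M21. Cacnb4-202 and Cacnb4-203 begin at the inner start, and Cacnb4-206 at the outer one. The capitals run to 45, 6 and 144 bases, and each begins with ATG.
Cacnb4-202: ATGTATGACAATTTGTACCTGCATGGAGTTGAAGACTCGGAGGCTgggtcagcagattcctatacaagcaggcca
Cacnb4-203: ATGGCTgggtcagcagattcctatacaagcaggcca
Cacnb4-206: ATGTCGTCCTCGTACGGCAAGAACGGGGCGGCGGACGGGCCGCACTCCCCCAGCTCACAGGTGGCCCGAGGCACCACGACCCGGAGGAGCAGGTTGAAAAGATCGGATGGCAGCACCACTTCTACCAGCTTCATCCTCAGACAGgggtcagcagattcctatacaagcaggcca

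Cacnb4-202 led in both libraries, at 110 and 107 TPM and 57.5% ± 2.25 (SD, n = 2) of the gene. Cacnb4-203 followed at 54.8 and 63.6 TPM, with 31.3% ± 2.74 (SD, n = 2). The 2 models share nearly all bases: Cacnb4-203 has an extra exon of 160 bases, and Cacnb4-202 has no base that another model lacks. The split between them rests on few positions and is an estimate. The long-start transcript Cacnb4-206 had 5.36 and 7.17 TPM from 725 and 942 counts. Inner-start models took 96.2% ± 0.480 of the gene's reads and 96.3% ± 0.501 (SD, n = 2) of its coding TPM. Their share of all Cacnb4 TPM was lower, 88.7% ± 0.494, since the short outer model Cacnb4-205, 208 bases long, held 16.1 and 13.8 TPM on 30 and 25 counts. These are shares of transcript models, and 5′ ends were not measured. Cacnb4-206 also has an internal exon of 20 bases that no other model has. Reads on that exon count toward the outer start whatever their 5′ end.

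**Figure D3:**
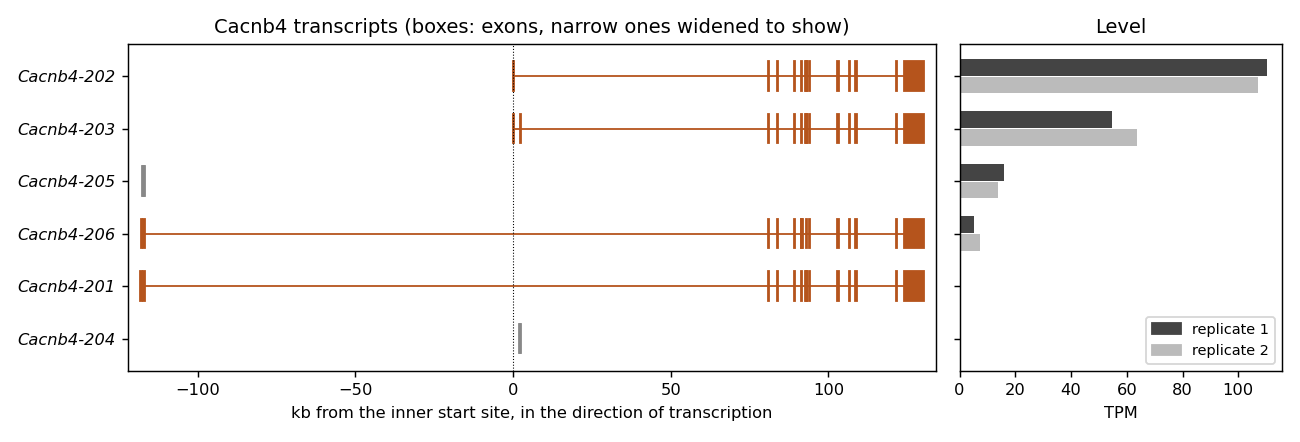
Cacnb4 transcript models drawn by distance in kb from the inner start in the direction of transcription (boxes are exons, widened where narrow; orange is protein-coding, grey not), with the TPM of each in replicates 1 and 2 as bars. The inner-start models Cacnb4-202 and Cacnb4-203 carry most of the level in both libraries.

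The RefSeq promoter at the inner start differed in base composition from the 2 RefSeq promoters at the outer start. It is shown, 250 bases on the minus strand at chr2:52558612-52558861 (RefSeq, GRCm38.p6), with each CG in capitals, because most Cacnb4 reads were assigned to models starting near it.
Cacnb4 inner promoter: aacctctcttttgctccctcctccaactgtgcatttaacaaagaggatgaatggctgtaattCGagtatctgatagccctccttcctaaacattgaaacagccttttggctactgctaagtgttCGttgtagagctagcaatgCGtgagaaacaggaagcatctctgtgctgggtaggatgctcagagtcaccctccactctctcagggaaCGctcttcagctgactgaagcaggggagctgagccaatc
It holds 4 CG, which read the same on both strands, and 37.8% of 32851 RefSeq promoters of that length hold fewer (median 6). The outer start has 2 entries, with 37 and 23 CG, and 97.8% and 86.7% of promoters hold fewer. Both outer entries overlap exons of outer-start models, and the one with 37 CG includes coding bases of Cacnb4-206. The inner one overlaps no Cacnb4 exon, so the comparison is not between upstream sequences alone.

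Cacnb2 (chr2:14603088-14987908, plus strand), a β gene known best from heart, had 135 and 91 counts and a TPM of 3.14 and 1.93. Little of it was coding: 23.6% ± 1.87 of its TPM and 14.6% ± 4.45 (SD, n = 2) of its reads went to protein-coding transcripts, or 0.78 and 0.43 TPM. It was the one gene of the 10 whose leading transcript differed between the libraries. Cacnb2-204, a retained-intron model, held 44.6% in replicate 1 and 0 in replicate 2, while Cacnb2-207, another retained-intron model, held 5.12% and 32.1%. These shares rest on 80.7 and 0 counts for Cacnb2-204 and on 13.6 and 50.8 for Cacnb2-207. Of the 3457 bases of Cacnb2-204, 201 lie in no other model. The split between the 2 models is thus an estimate, and a change between the areas was not tested. Cacnb2-206, also a retained-intron model, held 12.9% ± 2.91 (SD, n = 2) and was alone in reaching 10% in both libraries. Cacnb1, a β gene outside the 10, had 1.04 and 1.60 TPM.

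Cacna2d1 (ENSMUSG00000040118.11, chr5:15934691-16374511, plus strand) encodes an α2δ subunit that binds gabapentin. Its TPM was 15.6 in replicate 1 and 19.6 in replicate 2, or 17.6 ± 2.89 (SD, n = 2), all assigned to the coding transcript Cacna2d1-203 (76.3% by posterior mean). That model is 7436 bases long in the deposited tables and 3879 in GENCODE M21, and the deposited length was used. It made up 79.3% ± 2.19 (SD, n = 2) of the summed α2δ TPM. By gene TPM it could not be separated from Cacna1e, whose range overlapped. Over coding transcripts Cacna2d1 stood above every pore gene in both libraries.

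Cacna2d2 (chr9:107399612-107529343, plus strand), abundant in Purkinje cells, had 2.38 and 2.20 TPM. Of the 8 Purkinje cell markers 6 were detected in both libraries, and the part of that cell type in the Cacna1a, Cacna1g and Cacna2d2 levels was not tested. Cacna2d3 (chr14:28904943-29721864, minus strand) had 2.01 and 2.30. Cacna2d1 was 7.73-fold ± 1.69 above Cacna2d2 and 8.14-fold ± 0.564 (SD, n = 2) above Cacna2d3. Cacna2d2 and Cacna2d3 overlapped and could not be ordered. Cacna2d2-208, a coding transcript, led with 82.8% ± 3.32 (53.4% by posterior mean), and the retained-intron model Cacna2d2-210 held 12.5% ± 2.89 (SD, n = 2) on 8 and 10 counts. Cacna2d3 was assigned wholly to the coding transcript Cacna2d3-201. Cacna2d4, the last of the class and known from retina, had 7 and 15 counts.

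The 3 classes differed in size. Summed over the whole family, β genes reached 198 ± 2.74 TPM, α1 genes 104 ± 9.04 and α2δ genes 22.2 ± 3.03 (SD, n = 2). Over protein-coding transcripts the α1 sum was 34.1 ± 2.81, while the β sum was 181 ± 4.89 and the α2δ sum 21.9 ± 2.98 (SD, n = 2). The β excess over α1 held in both libraries under both measures.

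The share of coding transcripts varied widely among the genes. In TPM it was 100% for Cacna1b, Cacna2d1 and Cacna2d3, 92.1% ± 0.993 for Cacnb4, and 73.6% ± 3.31 (SD, n = 2) for Cacna1c. For Cacna1a, retained-intron models held 73.4% ± 3.68 and other noncoding models 14.4% ± 4.20 (SD, n = 2). In reads rather than TPM the coding share of Cacna1a was 49.4% ± 2.38, that of Cacna1e 89.7% ± 1.07 and that of Cacna1c 93.2% ± 0.517 (SD, n = 2). Over 10817 protein-coding genes detected in both libraries the median coding share of TPM was 98.2%, and 3.49% of them lay below Cacna1a. Of the 9 detected genes here 2, Cacna1a and Cacnb2, lay below 50%, which is 22.2% of them, against 15.6% of all detected protein-coding genes.

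**Figure D4:**
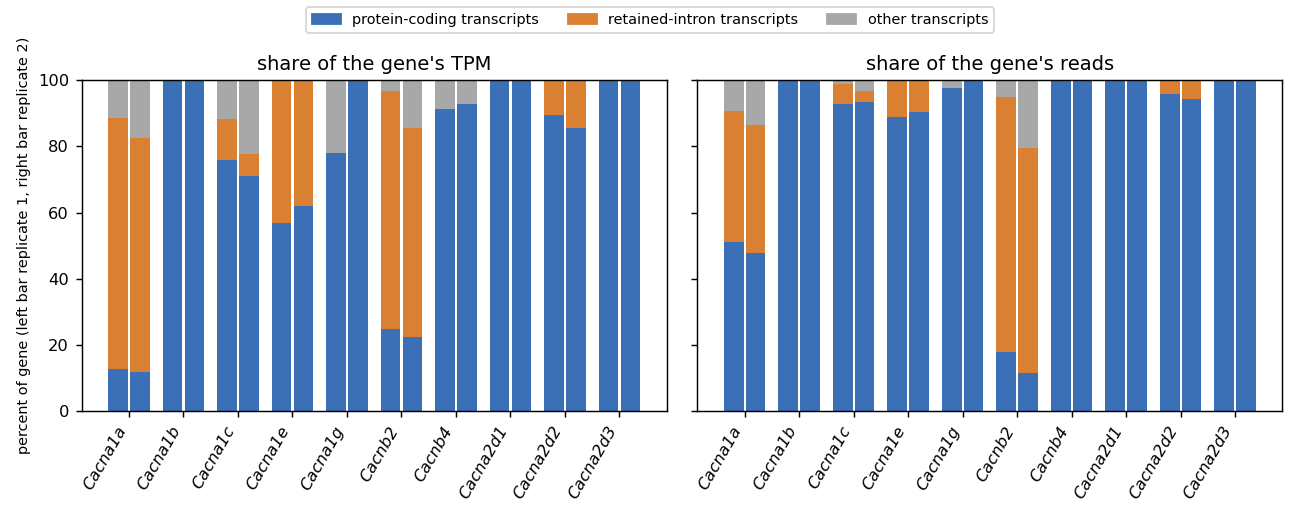
Percent of each gene's TPM (left) and of its reads (right) assigned to protein-coding, retained-intron and other transcripts, with replicate 1 as the left bar and replicate 2 as the right bar of each pair. Cacna1a and Cacnb2 are mostly retained-intron or other in TPM, and in reads the coding share of Cacna1a is higher.

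The libraries were then compared with each other, as areas and not as conditions. By an exact two-sided binomial test of rounded counts with Benjamini-Hochberg adjustment over all genes tested, 7 of the 10 differed beyond counting error. Of all 16659 genes tested, 47.6% did. This background was not matched to the 10 genes for depth, and deeper counts let smaller differences pass. Of the 10, 5 were higher in replicate 1 beyond counting error, against 23.9% of all genes tested, and 2 higher in replicate 2, against 23.7%. Among all 7931 genes that differed, 3989 were higher in replicate 1 and 3942 in replicate 2. The median log2 ratio of replicate 2 over replicate 1 was -0.13 for the 10 genes and -0.00 for all genes tested. Reads amplified by Smart-seq are not independent molecules, so these intervals cover counting error only. With every count divided by 10, none of the 9 still tested passed, and 1.13% of 12071 genes did. Cacna1g then fell below the minimum summed count and was not tested.

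Cacna2d1 was the clearest of those higher in replicate 2, at 2400 counts against 1956, a ratio of read shares of 1.27 (95% exact interval 1.20 to 1.35, adjusted p = 9.52e-14, exact binomial test). Cacnb4 was higher there by 1.05-fold (1.03 to 1.07), a small change seen because its counts are deep. Cacna1g was higher in replicate 1 by 3.10-fold, with the wide interval of 1.67 to 6.12 that 45 and 14 counts give. Cacnb2 was 1.43-fold (1.09 to 1.89), Cacna1b 1.29-fold (1.17 to 1.43), Cacna1a 1.11-fold (1.05 to 1.18) and Cacna1e 1.09-fold (1.03 to 1.15) higher in replicate 1. The ratio was within counting error for Cacna1c, Cacna2d2 and Cacna2d3, with adjusted p = 0.411, 0.464 and 0.372 by the exact test. Marker sums also differed between the areas. Golgi cell markers gave 47.1 and 34.9 TPM, microglial markers 82.1 and 61.4, and endothelial markers 154 and 129. Mural and smooth muscle markers gave 39.5 and 66.5, oligodendrocyte markers 522 and 637, and unipolar brush cell markers 61.9 and 80.9. Slc32a1 alone of the Golgi cell list was higher in replicate 2, as was Calb2 alone of the unipolar brush cell list. The mural and smooth muscle markers did not move together. Rgs5 and Kcnj8 were lower in replicate 2, and Vtn, Myl9, Acta2 and Tagln were higher. Acta2 and Tagln had 0 counts in replicate 1. The part of these cell types in the differences of the channel genes was not tested.

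**Figure D5:**
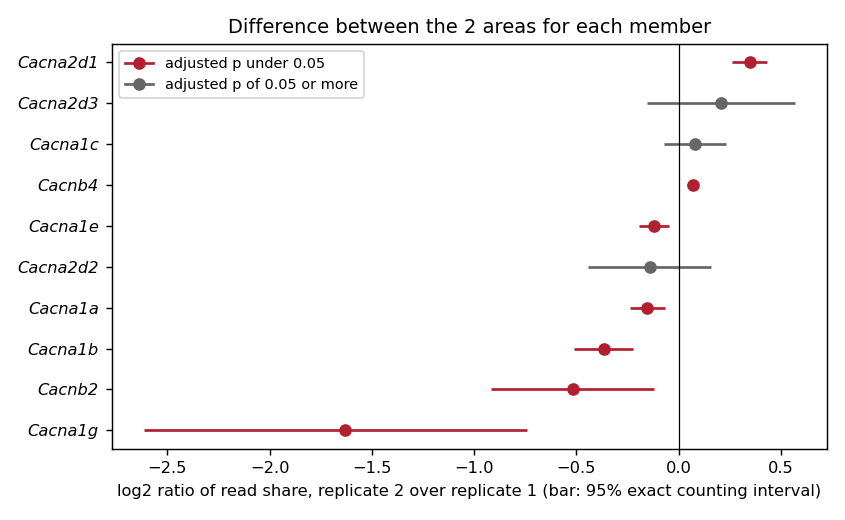
Log2 ratio of each gene's share of reads, replicate 2 over replicate 1, with the 95% exact counting interval as a bar; red marks an adjusted p under 0.05. Cacna1g has the widest interval and Cacnb4 the narrowest, and Cacna2d1 lies farthest to the right.

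Some exons overlap genes on the opposite strand, and whether counting used strand is not known, so reads there cannot be told apart. The longest overlap was 1433 bases of A430018G15Rik with Cacnb4, and A430018G15Rik had 1055 counts in replicate 1 and 332 in replicate 2. Gm16183 shares 435 bases with Cacna1a and had 20.1 and 39.7 counts. Cacnb2, at 135 and 91 counts, overlaps 3 such genes. It shares 618 bases with Gm10849 (0 and 3 counts), 239 with Gm13269 (7 and 1) and 111 with Gm10848 (14 and 0). Gm17141 shares 82 bases with Cacna2d2 and had 0 counts in both libraries.

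Detection of the genes that work with these channels is given by list, beside the 50.4% of all protein-coding genes detected in both libraries. The lists are short, and differences between them were not tested. Of 31 partners and regulators, 22 were detected in both libraries. Among the highest were Calm2, a calmodulin gene whose protein senses calcium at the channel, at 6225 ± 337 TPM, and the release protein gene Snap25, at 4264 ± 368 (SD, n = 2). Stx1a, a syntaxin gene, and Rem1, of a GTPase family that inhibits these channels, had 0 counts in both. Of 8 γ-like genes, which include auxiliary subunits of AMPA receptors, 3 were detected: Cacng2, the gene of stargazin, at 6.14 ± 0.665 TPM, Cacng3 at 2.36 ± 0.764 and Cacng4 at 2.31 ± 0.233 (SD, n = 2). Cacng6 was at 0. Of 9 calcium-activated potassium channel genes, which answer calcium entry, 4 were detected, led by Kcnmb4 at 35.0 ± 4.30 TPM, Kcnn2 at 12.2 ± 2.52 and Kcnma1 at 4.37 ± 1.68 (SD, n = 2). Kcnn4 was at 0.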

How the data were processed

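Per the file headers, the deposited tables give expected counts (estimated reads, not whole), TPM scaled by the authors for length and library total, and, for transcripts, the percent of the gene's TPM. The deposited score columns hold bounds on TPM and the count's posterior standard deviation. The deposited notes name mm10 as build and GENCODE M4 as annotation. Not given in the sources used here were the aligner, the counter and whether strand was used. Names, transcript types and structures came from GENCODE M21 (GRCm38): 42462 of 43346 genes and all 104 transcripts of the 10 genes matched, 100 of the 104 with the same length; the other 4 were Cacna2d1 models.

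Spike-in and control sequences (97 rows) and 26248 rows with numeric IDs, which together held 2.78% and 3.40% of all counts, were left out of gene totals and tests. Levels are TPM per library with mean and SD over 2 libraries. Counting error was tested on expected counts rounded to whole numbers, against the share of library totals. Genes needed a summed count of at least 10. The test used scipy 1.17.1 and statsmodels 0.14.6. It was checked on counts simulated with counting error alone, which is what the test assumes, so the check does not cover amplification. Scaling alternatives used edgeR 4.0.16 and DESeq2 1.42.0. All 10 genes were named, the other family genes, of each partner list the 3 highest and those at 0 (1 of these genes is not reported here), and of each gene the leading transcript and any other at 10 percent or more in both libraries. Genes and lists were chosen with earlier results of these data known. Values named outside that rule, such as Cacnb4-205, were chosen after they were seen. Alternatives were the posterior mean TPM, a fixed length, nuclear genes without Malat1, other thresholds and scalings, 2 pseudocounts (1 and 0.1) and leaving out each library.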

Additional observations from a re-analysis of the deposited data

How the results depend on the processing

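With 2 libraries of 1 group no p-value between conditions exists. No paired analysis was possible because the design has 1 group. Detection of 9 genes became 4 at a TPM of at least 5. The median level of the 10 genes, 4.72 TPM, was 5.29 by posterior mean TPM, 5.99 by the length of the longest coding transcript, 6.09 among nuclear genes without Malat1 and 4.13 by protein-coding transcripts alone, an alternative chosen after seeing the data. The class share of Cacna1a (67.3%) was 64.9%, 39.3% and 25.1% by posterior mean, coding length and coding transcripts, that of Cacnb4 (95.8%) 95.1%, 96.1% and 96.5%, and that of Cacna2d1 (79.3%) 74.4% by posterior mean. The genes beyond counting error fell from 7 to 0 with counts divided by 10, where 9 of the 10 could be tested. The median coding share, 86.5% as the mean of each library's median, was 71.5% by posterior mean and 97.0% in expected counts. Leaving out each library gave 9 to 9 genes detected, a median level of 4.52 to 4.92, shares of 67.3% to 67.4% for Cacna1a, 95.5% to 96.0% for Cacnb4 and 77.7% to 80.8% for Cacna2d1 and a coding share of 83.8% to 89.1%. With 1 library left, shared leaders could not be counted. The order of Cacna1a and Cacna1e reversed over protein-coding transcripts, from 3.92-fold to 0.805-fold, and was 1.45-fold by the coding length, a comparison added after seeing the data. Of all values recomputed, 114 stayed within the spread or margin of the main value, 52 moved and 1 reversed. With 2 libraries, a level or share from 1 library always lies within the SD of their mean. Leaving out a library could therefore not move such a value. A gene's mean taken on the log scale with a pseudocount also lies between its 2 library values, so it could not move either. The class shares could not move among nuclear genes without Malat1, since that scaling cancels in a ratio. All of these count among the 114.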

Other observations

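For 2 family genes outside the 10, the estimated split between transcripts varied more than the gene total. Cacna1d, an L-type pore gene, kept nearly the same level in both areas (4.47 and 4.54 TPM), while its coding transcript Cacna1d-201 was estimated at 66.1% in replicate 1 and 51.2% in replicate 2 and Cacna1d-202 at 33.9% and 48.9%. The posterior standard deviation of the Cacna1d-201 count was 60.8 on 346 counts in replicate 2, and the deposited TPM intervals of Cacna1d-201 overlapped between the libraries, so the splits are not separated. Cacnb1 was assigned 91.1% to Cacnb1-201 in replicate 1 and 72.8% to Cacnb1-205 in replicate 2, on 56 and 50 counts in all. Both splits were noticed after the values had been seen, and neither was tested. Among the release-site proteins of the partner list, Rims1 (116 ± 8.08 TPM), Rims2 (66.2 ± 5.10) and Erc1 (60.7 ± 5.68; SD, n = 2) were detected in both libraries, while Rimbp2, which links calcium channels to release sites, had 1 and 5 counts.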
